A study of Mus musculus and Homo sapiens with 14 samples.

Results

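The early transcriptional response of mouse RN2 leukemia cells to the kinase inhibitor YKL-05-099 was measured by sequencing of polyA-selected RNA in 4 libraries, 2 from treated and 2 from vehicle cells, of the 14 libraries in the series. Treated cells received 350 nM YKL-05-099 for 2 hours and vehicle cells 0.1% DMSO for 2 hours. RN2 is a single line of mouse acute myeloid leukemia with MLL-AF9 and mutant Nras as its drivers, so both groups share these lesions, and the titles of all 4 libraries carry the word empty. The remaining libraries come from RN2c, which is RN2 with Cas9, collected on day 2 after infection with a guide against Sik3 (guides e1 and e3), Mef2c (guides 1 and 2) or the Rosa26 control locus (2 libraries each), and from the human MLL-AF9 line MOLM-13 harboring an empty vector and given 250 nM YKL-05-099 or 0.1% DMSO for 2 hours (2 libraries each). Normalized read counts were used as deposited, with each library's counts divided by its DESeq2 size factor. Of 20682 rows in the RN2 table, 10732 genes had a mean of 10 or more over the 4 libraries and were tested.

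The salt-inducible kinases SIK1, SIK2 and SIK3 belong to the AMPK family and are switched on by the tumor suppressor kinase LKB1. Active SIKs phosphorylate class IIa histone deacetylases (HDAC4, HDAC5, HDAC7 and HDAC9) and the CRTC coactivators, and both are then held in the cytoplasm by 14-3-3 proteins. When SIKs are inhibited, class IIa HDACs can enter the nucleus and bind MEF2 factors, which represses MEF2 targets, while CRTCs can enter and coactivate CREB. MLL-rearranged leukemias are known for high MEF2C and for dependence on it, and YKL-05-099 is a small molecule made to inhibit the SIKs.

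The libraries held 14943682 and 14784227 recovered reads with YKL-05-099, against 13961461 and 14560501 with DMSO. All 12 listed markers of myeloid leukemia identity were measured, at 593 or more in every library, and none passed the test. Of the markers of other cell types, 10 of 12 for T and NK cells, 7 of 8 for B cells, 11 of 15 for erythroid cells and megakaryocytes, 6 of 10 for mast cells and eosinophils and 11 of 14 for stromal and endothelial cells had a mean under 10. Gata2 had 955 and 1042 with YKL-05-099 against 927 and 906 with DMSO, and Pecam1 had 3954 and 4159 against 3842 and 4130.0, so both were well expressed in every library, and none of the markers of these cell types passed the test. Summed levels did not overlap between groups for T and NK cell markers (166 and 160 with YKL-05-099, 125 and 147 with DMSO), B cell markers (30.1 and 20.5 against 13.6 and 12, close to the floor) or mast cell and eosinophil markers (1505 and 1693 against 1469 and 1471). They overlapped for erythroid and megakaryocyte markers (120 and 140 against 116 and 149) and for stromal and endothelial markers (4497 and 4764 against 4268 and 4638). Among single tested genes, groups did not overlap in 18.1% with YKL-05-099 higher and in 18.7% with it lower. The part of these cell types in the results was not tested. In bulk RNA, fewer cells of a type and less RNA per cell cannot be told apart. The labels do not state whether libraries of 1 group are separate cultures, and p-values here reflect spread among these libraries alone, possibly technical.

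After 2 hours of YKL-05-099, a small set of genes had fallen and a smaller one had risen. The chemokines Ccl3 and Ccl4, the costimulatory receptor Cd28, the AKT phosphatase Phlpp2 and the prostaglandin-degrading enzyme Hpgd were among the largest falls, and the p38 kinase activator Map2k6 was the largest rise past the test. In all, 4 genes were higher and 30 lower (limma on log2(value + 1), two-sided, Benjamini-Hochberg adjusted p under 0.05), which is 0.0373% and 0.280%, together 0.317%, of the 10732 tested. The groups did not overlap in any of these 34 genes. Over all tested genes, non-overlapping groups were found in 18.1% with YKL-05-099 higher and in 18.7% with it lower. The median absolute log2 fold change of the called genes was 0.55, against 0.06 over all tested genes, and 6 of them exceeded 1. The count rested on the mean-variance trend of the spread and on the filter: limma without the trend called 0 genes, with 739 at an unadjusted p under 0.05 and a lowest adjusted p of 0.178, and without the filter it called 0 higher and 3 lower, which were Cd28, Fam84b and Phlpp2. edgeR on recovered reads called 2 higher and 28 lower. DESeq2 called 5 and 30 among the 9899 genes for which it gave an adjusted p. The limma count also moved widely with a library left out. Such fits leave a group without replicates, and their counts are not given here.

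**Figure D1:**
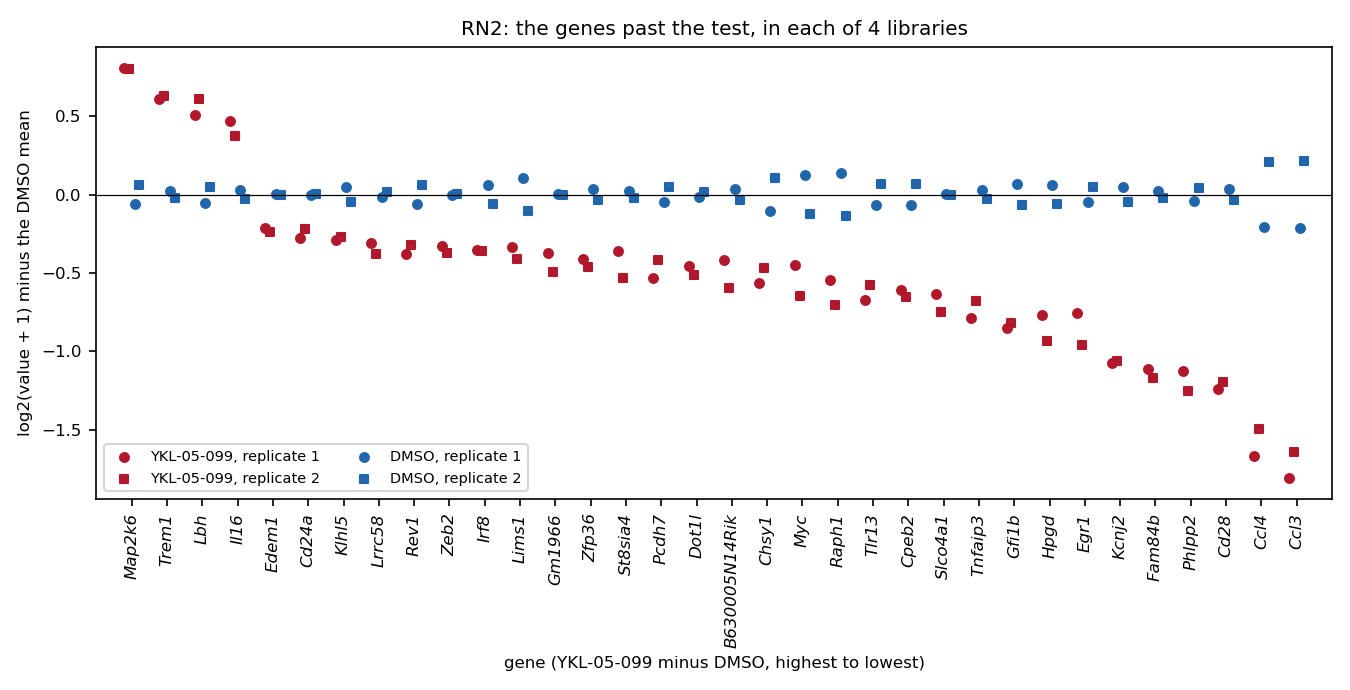
Each called gene on the horizontal axis has 4 points, the log2(value + 1) of a library minus the mean of the 2 DMSO libraries, with YKL-05-099 in red and DMSO in blue (circles for replicate 1, squares for replicate 2). In the 4 genes at the left both red points lie above both blue points, and in the 30 others both lie below. The spread between DMSO libraries is widest for Ccl3 and Ccl4.

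The chemokine genes Ccl3 and Ccl4 encode secreted ligands that draw monocytes and T cells, and they lie next to each other on chromosome 11. Ccl3 had values of 462 and 519 in YKL-05-099 libraries, against 1396 and 1879 in DMSO libraries. Its log2 fold change was -1.72 ± 0.119 (SE, n = 2 per group), a 3.30-fold lower level, with a limma adjusted p of 9.83e-05. Both treated libraries lay well under both controls, although the controls differed from each other more than the treated libraries did. Ccl4 had 101 and 114 with YKL-05-099, against 280 and 374 with DMSO, a log2 fold change of -1.58 ± 0.149 (limma adjusted p = 0.0014). Again both treated libraries lay under both controls.

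Cd28 encodes a costimulatory receptor best known on T cells. It had 1400.5 and 1445 with YKL-05-099, against 3385 and 3231 with DMSO, and the log2 fold change of -1.22 ± 0.0482 carried the lowest adjusted p of all genes tested (limma, 2.2e-06). Of the 12 T and NK cell markers found, only 2 were tested. Their log2 fold changes were 0.35 for Bcl11b and 0.01 for Nkg7, neither past the test. The other 10 had a mean under 10, and a part of T or NK cells in the fall of Cd28 was not tested. Phlpp2, a phosphatase that removes an activating phosphate from AKT, had 618 and 566 with YKL-05-099 against 1308 and 1387 with DMSO (log2 fold change -1.19 ± 0.0685, limma adjusted p = 4.15e-05). Fam84b had 452 and 435 against 993 and 965 (-1.14 ± 0.0682, limma adjusted p = 4.15e-05). Its exons overlap 9930014A18Rik on the other strand. The library protocol describes no strand marking, so reads of these genes cannot be told apart.

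Hpgd encodes 15-hydroxyprostaglandin dehydrogenase, which inactivates prostaglandins. It had 4746 and 4236 with YKL-05-099, against 8439 and 7761 with DMSO, a 1.81-fold lower level (log2 fold change -0.85 ± 0.0571, limma adjusted p = 9.48e-05). Kcnj2, an inward-rectifier potassium channel, had 236 and 238 with YKL-05-099 against 516 and 482 with DMSO (-1.07 ± 0.0886, limma adjusted p = 0.000481). Egr1, a zinc finger factor of the immediate early class, had 181 and 156 with YKL-05-099 against 295 and 316 with DMSO (-0.86 ± 0.114, limma adjusted p = 0.0135). The lowest control stood above the highest treated library in each of these genes.

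Gfi1b, a zinc finger repressor needed in erythroid and megakaryocyte development, and Tnfaip3, which encodes the NF-kB brake A20, completed the 10 largest falls. Gfi1b had 107 and 109 with YKL-05-099 against 203 and 185 with DMSO (-0.83 ± 0.127, limma adjusted p = 0.0263). Tnfaip3 had 126 and 137 against 224 and 215 (-0.73 ± 0.118, limma adjusted p = 0.036). DESeq2 did not call either gene, with adjusted p of 0.0538 for Gfi1b and 0.097 for Tnfaip3.

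The other 20 falls were smaller. They included Slco4a1 (-0.69), an organic anion transporter, Cpeb2 (-0.63), which binds mRNA and regulates its translation, Tlr13 (-0.63), a receptor for bacterial ribosomal RNA, Raph1 (-0.62), a regulator of lamellipodia, and Myc (-0.55), the growth-promoting transcription factor. Chsy1 (-0.52), which makes chondroitin sulfate, B630005N14Rik (-0.50), Dot1l (-0.48), the histone H3 lysine methyltransferase recruited by MLL fusions, Pcdh7 (-0.47), a protocadherin, St8sia4 (-0.45), a polysialyltransferase, and Zfp36 (-0.44), an mRNA-destabilizing protein, followed. Gm1966 (-0.43), annotated as an unprocessed pseudogene whose reads may be shared with related genes, Lims1 (-0.37), Irf8 (-0.36), a factor of the monocyte and dendritic lineages, Zeb2 (-0.35), a zinc finger repressor, Rev1 (-0.35), a translesion DNA polymerase, and Lrrc58 (-0.34) came next. The smallest were Klhl5 (-0.28), Cd24a (-0.25), a surface antigen, and Edem1 (-0.23), which takes part in the disposal of misfolded glycoproteins. Edem1 averaged 12235 ± 146 with YKL-05-099 and 14310 ± 44.6 with DMSO (SD, n = 2 each), so its small fall stood clear of a narrow spread. Exons of Zeb2, Lrrc58, Chsy1, Cpeb2, Rev1 and Zfp36 overlap another annotated gene, so their reads may be mixed.

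Myc and Dot1l had the lower values in both treated libraries. Myc had 2318 and 2025.5 with YKL-05-099 against 3450.4 and 2908 with DMSO (log2 fold change -0.55 ± 0.0819, limma adjusted p = 0.026, DESeq2 adjusted p = 0.0847). Dot1l had 1849.6 and 1778 with YKL-05-099 against 2506 and 2566 with DMSO (-0.48 ± 0.0472, limma adjusted p = 0.00147). For Dot1l the libraries of a group lay closer together than for Myc.

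Of the 4 rises, Map2k6, which encodes the p38 activator MKK6, was the largest. It had 227 and 226 with YKL-05-099 against 124 and 135 with DMSO, a 1.75-fold higher level (log2 fold change 0.80 ± 0.118, limma adjusted p = 0.0236). Trem1, a myeloid receptor that amplifies inflammatory signals, had 268 and 273 against 178 and 173 (0.62 ± 0.104, limma adjusted p = 0.0467). Lbh, a transcription cofactor, had 380 and 408 against 258 and 277 (0.56 ± 0.0936, limma adjusted p = 0.0467). Il16, a cytokine precursor, had 2031 and 1903 against 1498 and 1443 (0.42 ± 0.0537, limma adjusted p = 0.0117). In each, both treated libraries exceeded both controls, and exons of Il16 overlap 2310044K18Rik and Stard5 on the other strand. edgeR called Map2k6 and Il16, and gave adjusted p of 0.0538 for both Trem1 and Lbh.

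The genes next in order of p among those with higher values did not pass in limma, although DESeq2 called Arl11 (adjusted p = 0.0054) and Arhgef18 (adjusted p = 0.0423). Slfn2 had 149 and 134 with YKL-05-099 against 79.8 and 79 with DMSO (log2 fold change 0.82 ± 0.145), Gbp7 had 395 and 429 against 283 and 290 (0.52 ± 0.0902), Arl11 had 865 and 1004 against 616 and 699 (0.51 ± 0.0886) and Arhgef18, a guanine nucleotide exchange factor, had 2128 and 2270 against 1804 and 1796 (0.29 ± 0.0503), each with a limma adjusted p of 0.055. Rassf4 stood at 0.30 ± 0.0547 (limma adjusted p = 0.0631). The groups did not overlap in any of these 5 genes, which were chosen by low p. Over all tested genes, 18.1% had groups that did not overlap with YKL-05-099 higher.

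Transcripts of the inhibited kinases and of the MEF2 factors did not pass the test. Sik1 had 110 and 120 with YKL-05-099 against 89.2 and 99 with DMSO (log2 fold change 0.29 ± 0.148, limma adjusted p = 0.742). Sik2 had 423 and 392 against 431 and 421 (-0.07), and Sik3 had 1319 and 1293 against 1215 and 1340 (0.03). Mef2c had 6614 and 6542 against 6593 and 7256 (-0.07 ± 0.0458), while Mef2d stood at -0.02 and Mef2a at 0.01. Mef2b was at 0 in all 4 libraries. Groups overlapped for Sik2, Sik3, Mef2a, Mef2c and Mef2d, and the signs of Sik3, Mef2a and Mef2d turned when single libraries were left out.

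**Figure D2:**
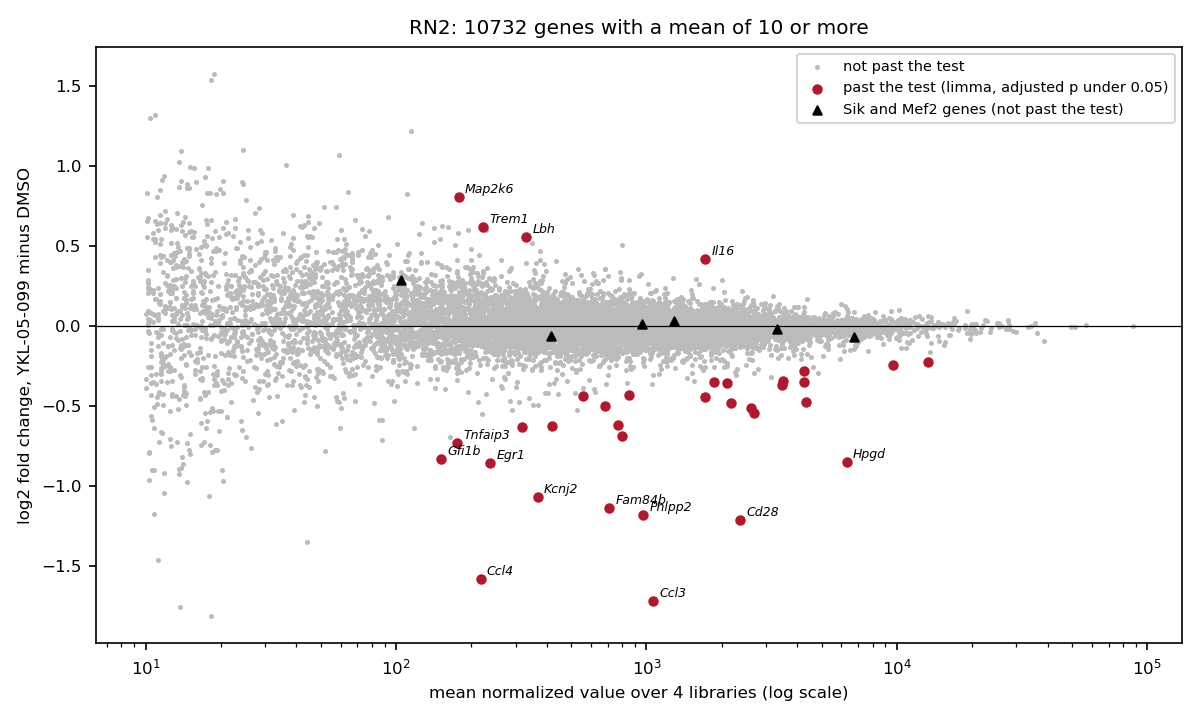
Each of the 10732 tested genes is a point, with its mean normalized value over 4 libraries on a log axis and its log2 fold change (YKL-05-099 minus DMSO) on the vertical axis. Genes past the test are red, and the most negative red points are Ccl3 at -1.72 and Ccl4 at -1.58. The Sik and Mef2 genes are black triangles, from -0.07 for Mef2c to 0.29 for Sik1. Grey points at the left edge spread as widely as the called genes.

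Precision followed the level of a gene. The median standard error of the log2 fold change was 0.312 among the 1106 genes with a mean of 10 to 50, where 0 were called, against 0.0834 among the 4225 genes from 200 to 1000, where 14 were called. Among the 528 genes at 5000 or more it was 0.0357, and 3 were called. Egr3, an immediate early factor, did not pass at -1.76 ± 0.497 with values of 2.92 and 9.77 with YKL-05-099 against 21.0 and 21 with DMSO. Its limma adjusted p was 0.315, and it is named here after its values were seen.

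The genes that fell were often those whose annotated 3′ untranslated region holds the AU-rich heptamer TATTTAT, the core sequence bound by proteins of the Zfp36 family, which hasten mRNA decay. In the longest annotated 3′ untranslated region of each gene (GENCODE vM21), 22 of 29 fallen genes with one held the heptamer on the sense strand, or 75.9%, against 30.2% of all tested genes and 0 of the 4 that rose. Fallen genes also had longer regions, with a median of 1821 bases against 1157 for all tested genes. Within length classes the heptamer was present in 4 of 9 fallen genes (44.4%) against 13.2% of all tested genes up to 1000 bases, in 5 of 7 (71.4%) against 36.4% above 1000 and up to 3000 bases, and in 13 of 13 (100%) against 63.6% beyond that. These shares are a description of the annotation, and a match is not evidence of binding. Of the 10 largest falls, 8 hold one, and the first heptamer of 5 of these is shown with 10 bases on either side, 5′ to 3′ on the strand of the gene, with the heptamer in capitals. Gfi1b and Egr1 held none. The sites lie on GRCm38 at chr11:83648004-83648030 (minus strand) for Ccl3, chr11:83664543-83664569 (plus) for Ccl4, chr1:60773206-60773232 (plus) for Cd28, chr15:60819050-60819076 (minus) for Fam84b and chr11:111075778-111075804 (plus) for Kcnj2.
Ccl3: tatttgtgacTATTTATtctgaaagac
Ccl4: ttatttctatTATTTATgttttagtta
Cd28: gtatttttctTATTTATtggtttattg
Fam84b: caaactcttaTATTTATcacgtgggaa
Kcnj2: gttcttctgtTATTTATttcagcatgg
In Ccl3 and Ccl4 the heptamer lies within 3′ untranslated regions of 409 and 302 bases. Zfp36 itself held 3 copies.

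Promoter letters are given as shares, without a test. RefSeq windows of 250 bases before the start (GRCm38.p6) matched 23 of the 30 fallen genes and 8618 of the tested genes, and motifs were searched on both strands. The cyclic AMP response element TGACGTCA was in 0 of the 23, against 3.19% of tested genes, and TGACG, which is part of it, was in 8 (34.8%) against 31.7%. The AP-1 letters TGANTCA were in 2 (8.7%), Zeb2 and Tnfaip3, against 5.22%. The MEF2 motif was in 1, Lims1, against 1.73%, the CArG box of serum response factor in 1, Zfp36, against 1.28%, and the NF-kB motif in 2, Edem1 and Tnfaip3, against 10.2%. The letters TATAAA were in 4 (17.4%), Lrrc58, Irf8, Tnfaip3 and Lims1, against 7.17%. No match says only that these letters are not in this window.

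Among the gene lists, MEF2 targets held the most falls. Of 17 tested members, 5 fell and 0 rose, against 0.280% of all tested genes that fell, and 14 of the 17 log2 fold changes were negative, with a median of -0.23 against -0.0009 for all tested genes. The 5 were Cd28, Hpgd, Ccl4, Gfi1b and Irf8, and the list was drawn up with earlier results of these data known, so its direction is not independent evidence. Irf8 had 1837 and 1828 with YKL-05-099 against 2443 and 2252 with DMSO (log2 fold change -0.36 ± 0.0523, limma adjusted p = 0.0236), with treated libraries close together and both under the controls. In the list of MEF2 and class IIa HDAC genes, which also holds their partner Hdac3, 0 of 8 tested members passed in either direction, and Hdac5 came closest with 1118 and 1209 against 1285 and 1393 (-0.20 ± 0.0642, limma adjusted p = 0.435). Of 21 tested SIK and LKB1 pathway genes, 0 passed, with log2 fold changes between -0.16 and 0.29. The lowest p in that list belonged to Prkar2b, a regulatory subunit of protein kinase A, at 0.14 ± 0.0556 (limma adjusted p = 0.624).

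Of 21 tested CREB and CRTC targets, 1 fell (Egr1) and 0 rose, with a median of -0.03. Over all tested genes 0.280% fell and 0.0373% rose. Junb and Fos, subunits of AP-1, had negative log2 fold changes that did not pass, and Pde4b, which degrades cyclic AMP, had a positive one. Junb had 564 and 506 with YKL-05-099 against 746 and 661 with DMSO (-0.39 ± 0.0859, limma adjusted p = 0.127), Fos had 187 and 170.0 against 249 and 248 (-0.48 ± 0.109, limma adjusted p = 0.158), and Pde4b had 226 and 229 against 174 and 168 (0.41 ± 0.109, limma adjusted p = 0.257). Among 23 tested immediate early genes, which growth factors switch on without new protein synthesis, 3 fell (Egr1, Myc and Zfp36, against 0.280% of all tested genes), 0 rose and 18 log2 fold changes were negative, with a median of -0.20. Zfp36, which encodes tristetraprolin, had 481 and 464 against 657 and 624 (-0.44 ± 0.074, limma adjusted p = 0.0474), and edgeR gave 0.0526.

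Of 19 tested genes of ERK feedback, 1 fell (Myc), against 0.280% of all tested genes. Dual-specificity phosphatases of this list stood on either side of 0: Dusp7 had 527 and 543 with YKL-05-099 against 780 and 652 with DMSO (-0.41 ± 0.0896), while Dusp6 had 2197 and 2170.1 against 1910 and 1854 (0.21 ± 0.0467), and both had a limma adjusted p of 0.127. Spry2, a Sprouty inhibitor of receptor signaling, had 359 and 327 against 519 and 405 (-0.42 ± 0.118, limma adjusted p = 0.308). In each of these 3 genes the groups did not overlap, yet none passed. Over all tested genes, groups did not overlap in 18.1% with YKL-05-099 higher and in 18.7% with it lower. Of 21 tested PI3K, AKT and FOXO genes, 1 fell (Phlpp2), and the median was 0.06. Its other leading members were Tsc22d3, with 429 and 428 against 326 and 365 (0.31 ± 0.0895, limma adjusted p = 0.323), and Bcl6, with 67.1 and 62.5 against 82.9 and 138 (-0.72 ± 0.226, limma adjusted p = 0.434).

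Among 20 tested genes of NF-kB and the inflammatory response, 3 fell (Ccl3, Ccl4 and Tnfaip3, against 0.280% of all tested genes) and 0 rose, but 8 log2 fold changes were positive and the median was -0.01. Tnf, the cytokine that activates NF-kB, had 257 and 218 with YKL-05-099 against 379 and 307 with DMSO (-0.53 ± 0.126, limma adjusted p = 0.188). In the JAK-STAT feedback list, 0 of 17 passed, and Pim3, a serine/threonine kinase, came closest with 309 and 299.96 against 416 and 445 (-0.50 ± 0.0874, limma adjusted p = 0.055). Of 19 tested interferon-stimulated genes, 0 passed. Of 19 RNA-binding regulators of mRNA decay, 2 fell (Cpeb2 and Zfp36) and 14 log2 fold changes were negative. Elavl1, which encodes the AU-rich element binder HuR, had 2012 and 1810 against 2122 and 2113 (-0.15 ± 0.057, limma adjusted p = 0.603).

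Among 24 tested members of the MLL fusion and stem cell list, 3 fell (Dot1l, Zeb2 and Myc, against 0.280% of all tested genes), 0 rose and the median was -0.05. Zeb2 had 3810 and 3682 with YKL-05-099 against 4767 and 4779 with DMSO (-0.35 ± 0.0391, limma adjusted p = 0.00411), with controls nearly equal. Jmjd1c, a histone demethylase family member, had 3697 and 3813 against 4085 and 4053 (-0.12 ± 0.0395, limma adjusted p = 0.497). Of 30 tested genes of MYC and ribosome biogenesis, 1 fell (Myc itself), yet all 30 log2 fold changes were negative, with a median of -0.08 and a range from -0.55 to -0.01. The next were Ppan with 1313 and 1345 against 1571 and 1500 (-0.21), Gnl3 with 2140.2 and 1951 against 2345 and 2314 (-0.19) and Rrs1 with 1853 and 1810 against 2101 and 2018 (-0.17), factors of large-subunit assembly or the nucleolus. Their limma adjusted p ran from 0.231 to 0.321. The summed level of the list was 133490 and 132480 with YKL-05-099 against 142170 and 137580 with DMSO, so the controls also differed from each other. The groups overlapped for some members, such as Npm1 and Fbl, and the members are not independent of each other. The 30 tested cytoplasmic ribosomal protein genes stayed between -0.04 and 0.03, with 0 called and 13 negative.

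Of 17 tested genes of the unfolded protein response, 1 fell (Edem1, against 0.280% of all tested genes) and 14 log2 fold changes were negative. The chaperones Hyou1 (-0.12 ± 0.0351, limma adjusted p = 0.346) and Hspa5 (-0.08 ± 0.0311, limma adjusted p = 0.557) and the factor Manf (-0.11 ± 0.051, limma adjusted p = 0.684) did not pass. In the granulocyte list 0 of 20 tested genes passed, and in the monocyte and macrophage list 1 of 16, Irf8, fell. The granulocyte genes of lowest p were Cd177 with 198 and 192 against 145 and 163 (0.34 ± 0.12, limma adjusted p = 0.511) and Lcn2 with 244 and 287 against 226 and 209 (0.28 ± 0.115, limma adjusted p = 0.632). Ly6c2 (0.09), Csf1r (0.19) and Fcgr3 (0.09), markers of monocytes, did not pass either. In the cell cycle list, 0 of 33 passed, and the members of lowest p were E2f2 (0.29 ± 0.0612, limma adjusted p = 0.127) and Cdkn1a (-0.25 ± 0.0631, limma adjusted p = 0.23). Oxidative phosphorylation, lysosome, integrated stress response and sterol synthesis lists each held 0 called genes.

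**Figure D3:**
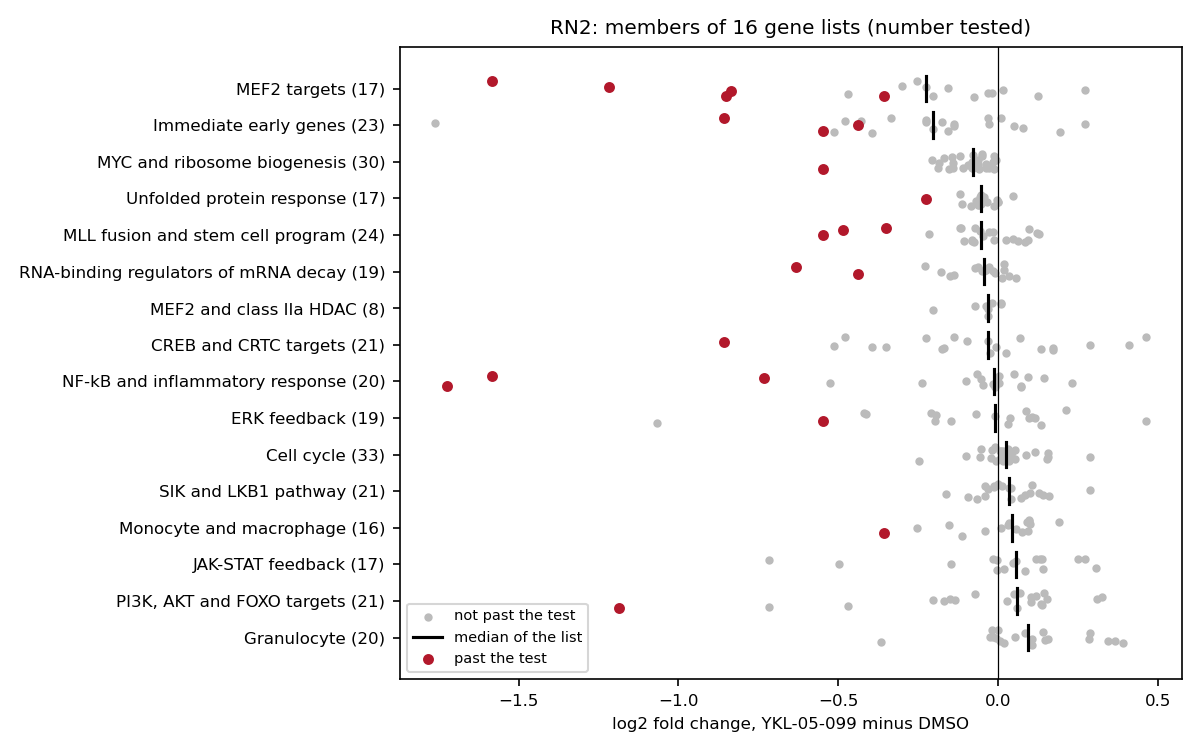
Each row is a gene list with its number of tested members, each point a member's log2 fold change (YKL-05-099 minus DMSO), and the black bar the median of the list. Red points passed the test. MEF2 targets and immediate early genes have the lowest medians (-0.23 and -0.20), and the members of the MYC and ribosome biogenesis list all lie at or left of 0.

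Replicate numbers 1 and 2 occur in both groups, and a fit with the number as a block gave far more calls. With the block, limma called 196 genes higher (1.83% of those tested) and 303 lower (2.82%), together 4.65%, and all 34 genes of the fit without the block remained. Of these 499, which the fit selects for pairs that move alike, the groups did not overlap in 455, against 18.1% of all tested genes with YKL-05-099 higher and 18.7% with it lower. The changes were small, the median absolute log2 fold change being 0.22. The block leaves 1 residual degree of freedom in place of 2. The prior degrees of freedom were 8.04 without the block. With it they reached 10730, a ceiling set by the number of genes rather than an estimate. The spread of each gene was then in effect the trend value, so the larger count does not measure a larger effect. edgeR with the block called 200 higher and 292 lower. DESeq2 with the block called 2 higher and 29 lower among the 8651 genes for which it gave an adjusted p. The labels do not say that a number marks a shared culture or day.

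Of the genes that passed in limma with the block and not without it, those with large changes at a mean of 50 or more are given as that. B3galt5, a galactosyltransferase, had 146 and 171 with YKL-05-099 against 48.3 and 94 with DMSO (log2 fold change 1.22, DESeq2 adjusted p without the block = 0.0392), and Ccno, an atypical cyclin, had 69.0 and 91.8 against 30.4 and 46 (1.07). Among those with lower values were Klf5, a zinc finger factor, with 45.7 and 31.3 against 60.9 and 71 (-0.78), Bcl6 (-0.72), and Lpl, which encodes lipoprotein lipase, with 119 and 132 against 182 and 227 (-0.69). Only genes whose groups did not overlap were considered here, so the lack of overlap is part of the choice. The 2 controls of B3galt5 stood far apart. By list, 8 of 23 immediate early genes fell in limma with the block, against 3 without it and 2.82% of all tested genes lower with the block. For MYC and ribosome biogenesis 10 of 30 fell, against 1, and for MEF2 targets 7 of 17 fell, against 5, and 2 rose. DESeq2 with the same block did not give these gains, with 2 falls among immediate early genes, 1 in MYC and ribosome biogenesis and 4 among MEF2 targets.

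**Figure D4:**
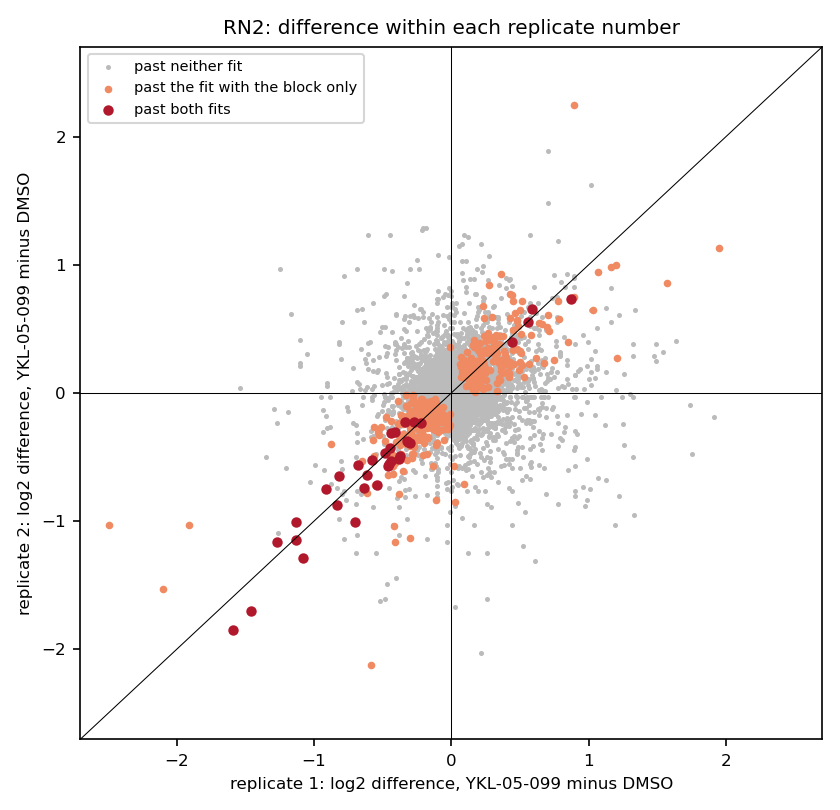
Each point is a gene, with the log2 difference (YKL-05-099 minus DMSO) between the libraries numbered 1 on the horizontal axis and between those numbered 2 on the vertical axis, and the line marks equality. The 34 genes past both fits (red) lie near the line, and the genes past the fit with the block only (orange) gather closer to 0.

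The RN2 effect was set against that of the Sik3 guides in RN2c, a comparison with other control libraries, another time and a separately normalized table. The sgSik3 libraries carry different guides, e1 and e3, and the fit treated them as replicates. Their spread, and so the standard errors and p-values, includes any difference between guides. Sik3 itself had 1219 and 1169 with sgSik3 against 1939 and 1878 with sgRosa26, and Mef2c had 3892 and 4021.5 with sgMef2c against 8395 and 8369. Of the 34 genes, 31 were also called in the same direction with sgSik3, which is 91.2% of the RN2 calls and 0.604% of the 5132 sgSik3 calls, and 2, Egr1 and Rev1, in the opposite one. For the falls, 28 of 30 were also lower with sgSik3, where 24.5% of all commonly tested genes were lower. The difference between both effects passed in 22 of the 34, against 25.0% of the 10594 genes tested in both tables. The 34 were chosen by their RN2 effect, which is part of the difference, so their share is not independent evidence. Among differences with the lower value under sgSik3, the largest were those of Hpgd, Cd28, Gfi1b and Pcdh7. Cd28 had 425 and 559 with sgSik3 against 4289 and 4592 with sgRosa26 (log2 fold change -3.18), and the RN2 effect minus the sgSik3 effect was 1.97 ± 0.132 (limma adjusted p = 1.55e-06). Hpgd differed by 2.11 ± 0.24 (limma adjusted p = 6.51e-05), Gfi1b by 1.96 ± 0.192 and Pcdh7 by 1.29 ± 0.0918, each with the deeper fall under sgSik3.

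Egr1 and Rev1 went the other way. Egr1 had 426 and 418 with sgSik3 against 276 and 335 with sgRosa26 (log2 fold change 0.47), so that the RN2 effect minus this one was -1.33 ± 0.158 (limma adjusted p = 8.77e-05). Rev1 rose by 0.23 with sgSik3 and differed by -0.58 ± 0.0682 (limma adjusted p = 8.03e-05). Trem1 rose in both, by 1.39 with sgSik3, and differed by -0.77 ± 0.0998 (limma adjusted p = 0.000155). Map2k6 did not pass with sgSik3, with 217 and 180.1 against 234 and 209 (-0.16), and the difference of 0.97 ± 0.171 passed (limma adjusted p = 0.00137). Ccl3 differed by 0.51 (limma adjusted p = 0.0317), and for Fam84b, Myc and Tnfaip3 the difference did not pass.

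With the Mef2c guides, which were compared with the same sgRosa26 libraries, 28 of the 34 genes were called in the same direction (82.4% of the RN2 calls and 0.831% of the 3368 sgMef2c calls) and 1, Rev1, in the opposite one. For the falls, 26 of 30 were also lower with sgMef2c, against 15.5% of all commonly tested genes. The difference passed in 12 of the 34, against 13.9% of 10600 genes (1478 genes, or 815 without YKL-05-099 replicate 2). The sgMef2c libraries also carry different guides that the fit treated as replicates. As with sgSik3, the 34 genes were chosen by their RN2 effect, which is part of this difference. Gfi1b had 34.9 and 24.8 with sgMef2c against 216 and 231 with sgRosa26, and its difference was 2.05 ± 0.237 (limma adjusted p = 0.000314). Pcdh7 differed by 0.98 ± 0.13, Cd28 by 0.96 ± 0.16, Map2k6 by 0.83 ± 0.157 and Tlr13 by 0.82 ± 0.133, with adjusted p between 0.000629 and 0.00462. For Slco4a1 the difference was -0.51 ± 0.0898 and for Dot1l -0.31 ± 0.0629, with the lower value under the inhibitor (limma adjusted p = 0.00317 and 0.00747). With sgMef2c itself Slco4a1 did not pass (-0.18, limma adjusted p = 0.054). Ccl3 stood at -1.71 with sgMef2c, close to its -1.72 with the inhibitor, and the difference was -0.01 (limma adjusted p = 0.978).

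**Figure D5:**
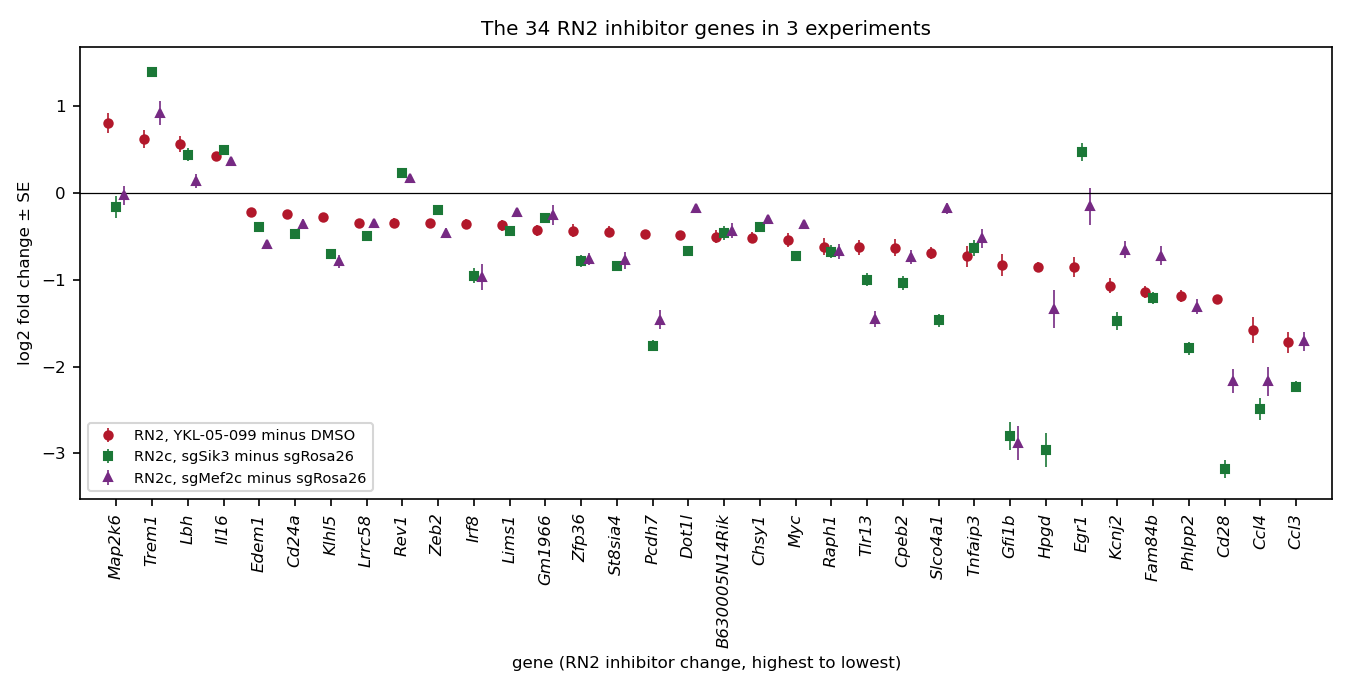
For each of the 34 genes, points with standard errors give the log2 fold change for YKL-05-099 minus DMSO in RN2 (red circles), sgSik3 minus sgRosa26 (green squares) and sgMef2c minus sgRosa26 (purple triangles) in RN2c, where both guides share their controls. Gfi1b, Hpgd and Cd28 lie lowest under sgSik3 (-2.80, -2.96 and -3.18), and Rev1 is above 0 with both guides.

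In MOLM-13, which received 250 nM rather than 350 nM, 23 of the 34 genes could be set beside their human counterparts by symbol. The test of the difference between both lines passed in 0 of 8834 genes (limma, 176 at an unadjusted p under 0.05, and 0 with edgeR), and the MOLM-13 test itself called 0 genes, so neither similarity nor difference can be read from it. With the replicate number as a block in MOLM-13, 6 of the 23 were called, all in the RN2 direction, against 2.60% of the commonly tested genes. These were Tnfaip3 (-1.09 ± 0.0773), Il16 (0.57 ± 0.0681), Myc (-0.42 ± 0.0432), Irf8 (-0.26 ± 0.0435), Dot1l (-0.19 ± 0.0448) and Zeb2 (-0.18 ± 0.0434), with limma adjusted p from 1.5e-41 to 0.00443. Tnfaip3 had 305 and 417 with YKL-05-099 against 681 and 853 with DMSO in MOLM-13. For Zeb2 the groups overlapped, with 5490 and 4627 against 5914 and 5474. As in RN2, the block leaves 1 residual degree of freedom. With a block within each line, a fit added after seeing the data, the difference passed in 75 genes (0.849%), 14 of them among the 23. The 23 were chosen by their RN2 effect, which is part of this difference, so their share is not independent evidence. Fam84b differed most, by -1.56 ± 0.199 (limma adjusted p = 0.00111), with 30.1 and 28.7 against 25.2 and 18.8 in MOLM-13.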

How the data were processed

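Libraries were prepared from polyA-selected RNA, per the labels' protocols. The submitters' processing notes name the tools HISAT2, featureCounts and DESeq2, and the builds mm10 and hg19. For tool versions and the counting annotation, nothing is stated (not given in the sources used here). Values that the authors deposited are a normalized signal, read counts over DESeq2 size factors. Dividing by the smallest nonzero value of a library gave whole reads for 100% of values within 0.001 reads in every library.

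The members and the gene lists (36 lists, of whose 667 symbols 649 were found and 547 tested) were chosen with earlier results of these data known. Genes with a mean of 10 or more were tested with limma 3.58.1 (moderated by empirical Bayes, trend on) on log2(value + 1) in R 4.3.3, adjusted by Benjamini-Hochberg at 0.05. Fold changes on this scale understate the change of low genes. Differences between experiments were contrasts of both effects over 8 libraries. edgeR 4.0.16 (quasi-likelihood) and DESeq2 1.42.0 were run on the recovered reads as alternatives, since the deposited values are not counts. Other alternatives were the replicate block, TMM or quantile scaling, voom, no trend, other pseudocounts, filters and thresholds, and leaving out each library. Of these fits, limma and edgeR with and without the block, and the limma difference fit, were also run on simulated counts. The simulation held no effect of the replicate number and did not cover the other alternatives.

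Named genes were the Sik and Mef2 genes, the 10 largest rises and falls past the test with a mean of 50 or more and no overlap between groups (filled to 10 with genes of lowest p, given as not past it), up to 4 members of lowest p in each list described, and up to 5 differences between experiments in each direction. The other called genes, genes of the fit with the block, and Egr3, Nkg7 and Bcl11b were named after their values were seen. Gene positions and 3′ untranslated regions are from GENCODE vM21 (GRCm38), in which 20527 of 20682 symbols matched 1 gene. Some genes and 1 site that these rules name are not reported here.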

Additional observations from a re-analysis of the deposited data

How the results depend on the processing

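The RN2 counts of 4 higher and 30 lower genes moved with the model of the spread. The replicate block gave 196 and 303 with limma, 200 and 292 with edgeR and TMM factors, and 2 and 29 with DESeq2. The deviations of same-numbered libraries from their group means correlated with r = 0.216 across 10732 genes, which are not independent, and with 2 pairs and no label tying a number to a culture the numbers are not taken as pairs. Without the mean-variance trend limma called 0 and 0, without a filter on the mean 0 and 3, and with quantile normalization 1 and 15. The higher genes numbered 2 with edgeR and TMM factors, with limma-voom and with TMM scaling. A threshold of 0.01 left 0 and 12, and one of 0.10 gave 13 higher. Leaving out 1 library gave 1 to 131 higher and 25 to 187 lower. The cause was not tested.

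Of the 34 called genes, none reversed under any of 18 settings. Cd28, Fam84b and Phlpp2 kept their call in 17, all but the fit without the trend. Trem1, Lbh and Zfp36 kept theirs in 8. All 34 stayed called with a pseudocount of 0.5 or 5. They also stayed called with the limma or edgeR block, but those fits called 499 and 492 genes in all, so this is a weak check. DESeq2 kept 28 without the block and 26 with it. The 18 settings include fits with a library left out, which leave a group without replicates and are weak checks. Of genes not called, Mef2d turned from -0.02 to 0.000847 with quantile normalization. With libraries left out, Mef2d ranged from -0.102 to 0.0656, Mef2a from -0.0497 to 0.0677 and Sik3 from -0.0374 to 0.104. Of 72 counts of list members recomputed 1440 times, 152 moved by over 1.5 times, 69 of them with a block.

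The difference from sgSik3 was called in 1941 to 2775 genes with a library left out, against 2653, and that from sgMef2c in 815 to 1402, against 1478, the lowest without YKL-05-099 replicate 2. The difference from MOLM-13 was 0 in every setting except a replicate block within each line, which gave 75. Precision was lowest in genes with a mean of 10 to 50, where the median standard error was 0.312 and 0 of 1106 genes were called.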
